A study of Mus musculus with 2 samples.

Results

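Neutrophil granule proteins are described here as a set of 32 genes, from the azurophil protease Elane to the late gene Retnlg, in mouse spleen cells from 2 libraries, 1 of low and 1 of high B12 treatment. The members were taken by symbol from the 32285 genes of the count tables, all 32 were present, and their level was followed along 4 stages of granulocyte maturation. Per the labels, viably frozen splenocytes were sorted for CD45.2 and CD11b with a DAPI gate, CD45.2 marking leukocytes and CD11b myeloid cells, and RNA was read at the 3′ end of transcripts in single cells. The treatment is given only as low or high B12 (vitamin B12). The series title speaks of Tet2-deficient hematopoiesis, a loss of a DNA demethylase gene, but neither sample label gives genotype, host strain, age, B12 dose, treatment time or the number of mice. With 1 library for each treatment no difference between treatments could be tested, and the intervals below are 95% intervals that cover counting error only.

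Neutrophils pack their granules in order as they mature in marrow, and in the spleen when granulocytes are made there. Promyelocytes make azurophil granules, filled with myeloperoxidase and serine proteases. Myelocytes and metamyelocytes make specific granules with lactoferrin and cathelicidin, later cells make gelatinase granules and secretory vesicles, and which granule a protein enters is known to follow from when its gene is read.

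Stages were set by the share of a cell's UMIs (unique molecular identifiers, each counting 1 captured RNA molecule). Stage 1 cells held at least 10 UMIs of Elane, Mpo and Prtn3 together. Of the other cells, stage 2 held at least 2% of UMIs from S100a8 and S100a9, the subunits of calprotectin, and at least 1% from Camp, Ngp and Ltf. Stages 3 and 4 held at least 5% calprotectin RNA, with 0.2% to 1% and under 0.2% of UMIs from Camp, Ngp and Ltf. The order of these 6 members along the stages was therefore fixed by the rule and is given as a description. The other 26 members took no part in it. All 32 reached 50 UMIs over the stages in each library, and only Prss57 and Olfm4 stayed under 100 CPM (UMIs of a gene for each 1e6 UMIs of the stage) in every stage of at least 1 library. As 3′ reads give 1 count a molecule, CPM is not scaled by transcript length.

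The low-B12 library gave 6510 cells and the high-B12 library 6748, with 4 cell barcodes shared. Stage 1 held 19 cells at low and 35 at high B12, stage 2 held 254 and 735, stage 3 held 11 and 64, and stage 4 held 666 and 1864. Of the stage 1 cells 4 and 12 had only 10 to 19 UMIs of Elane, Mpo and Prtn3, and 14 cells in each library fell just short with 5 to 9. Median depth fell along the stages in both libraries, from 26257 to 11758, 7359 and 2688.5 UMIs at low B12 and from 25187 to 11672, 5481 and 3064 UMIs at high B12. Scrublet called 5 of the 11 low-B12 stage 3 cells (45.5%) and 6 of the 64 high-B12 ones (9.38%) as doublets, so values without them are given for the members whose results turn on stage 3. Near the 1% limit, no low-B12 and 4 high-B12 cells had 0.9% to 1% of UMIs from Camp, Ngp and Ltf, and 2 and 7 had 1% to 1.1%. Droplets with 10 to 50 UMIs, taken as empty, held 24206 CPM of 9 neutrophil markers at low B12 and 67495 CPM at high B12, and this free RNA is set beside low values below.

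Genes outside the member set were read along the stages. Their lists were chosen with earlier results of these data known, so their counts are a description and no independent check of the stages. All 14 cell cycle genes of a list had their highest CPM in stage 1 in both libraries, against 29.1% of all genes with at least 50 UMIs over the stages in each library. All 11 mature neutrophil genes had it in stage 4, against 25.7%. Itgam, which encodes the sorted antigen CD11b, was at 209, 556, 504 and 563 CPM in stages 1 to 4 at low B12 and at 186, 547, 589 and 507 CPM at high B12. All 9 neutrophil markers, of which S100a8 and S100a9 draw the stages, had UMIs in every stage of both libraries. They also had UMIs in the cells outside the stages and in empty droplets, so this does not tell the stages apart. Ly6g, the neutrophil surface antigen, was highest in stage 2, at 609 and 741 CPM.

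Of the 32 members, 9 had their highest CPM in stage 1 in both libraries, 14 in stage 2, 5 in stage 3 and 2 in stage 4. Mmp9 and Adam8 were highest in stage 4 at low B12 and in stage 3 at high B12. Among the 7317 genes that passed the same UMI limit, 29.1% were highest in stage 1, 3.21% in stage 2, 7.72% in stage 3 and 25.7% in stage 4. The members are a chosen set, so these shares stand side by side as a description. Leaving out the 6 members that draw the stages left 6, 11, 5 and 2 members highest in stages 1 to 4.

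**Figure D1:**
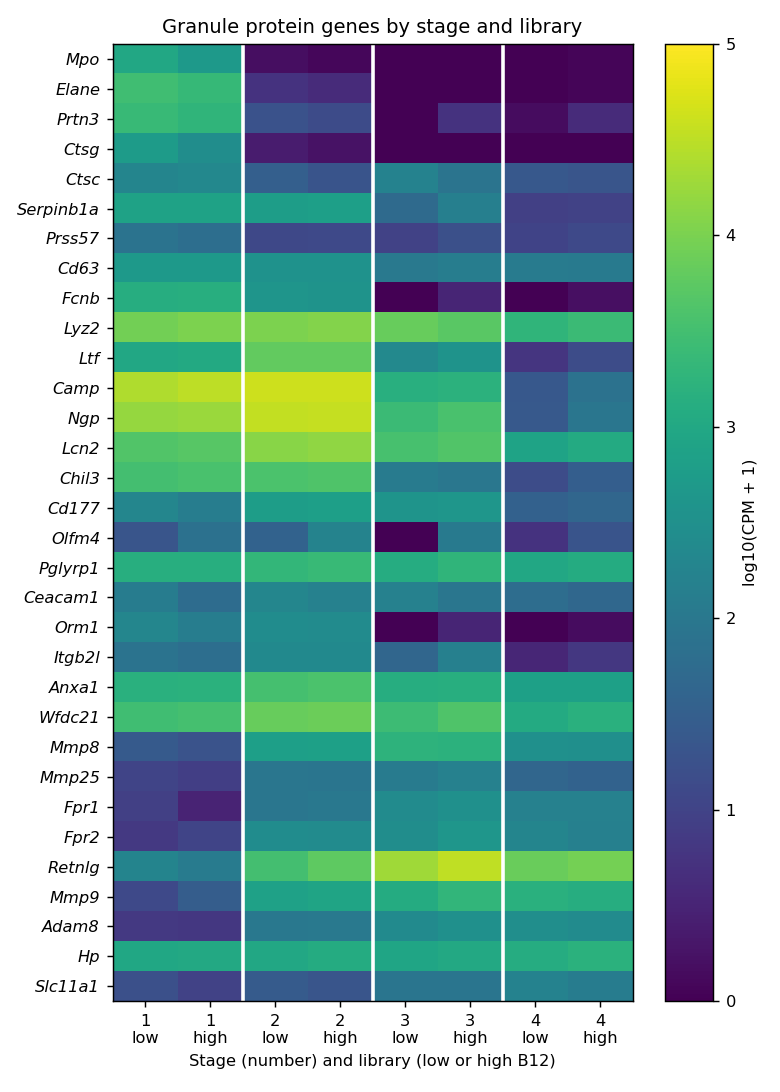
Level of each of the 32 members (rows) in stages 1 to 4 of the low-B12 and high-B12 libraries (columns), coloured by log10 of CPM + 1. Read along each row, the top rows are brightest in stage 1, Ltf, Camp and Ngp in stage 2 and Retnlg in stage 3, in both libraries. Read down the columns, Camp and Ngp are the brightest rows in stages 1 and 2.

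The 9 members highest in stage 1 were mostly azurophil proteins. The RNA of Elane, Prtn3, Mpo and Ctsg fell steeply by stage 2, and that of the others fell less. Elane, encoding neutrophil elastase, was at 2881, 4.52, 0 and 0 CPM at low B12 and 2203, 3.18, 0 and 0.156 CPM at high B12 along stages 1 to 4. Prtn3, encoding proteinase 3, was at 2321, 17.2, 0 and 0.491 CPM at low B12 and 1878, 12.9, 4.44 and 3.13 CPM at high B12. Mpo, encoding the myeloperoxidase that makes hypochlorous acid, was at 1006, 0.565, 0 and 0 CPM at low B12 and 504, 0.212, 0 and 0.156 CPM at high B12. These are 3 of the genes that define stage 1, so their fall is set by the rule, though each remained highest in stage 1 when it was left out of its own rule. Empty droplets held Elane at 6.47 and 6.93 CPM, Prtn3 at 18.0 and 15.5 CPM and Mpo at 3.59 and 2.13 CPM, above their stage 2 levels. The part of this free RNA in the stage 2 levels was not tested.

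Ctsg was the sharpest of the stage 1 members that the rule did not use. It encodes cathepsin G, another serine protease of azurophil granules, and was at 551, 1.41, 0 and 0 CPM at low B12 and 279.7, 0.743, 0 and 0 CPM at high B12. From stage 1 to stage 2 its level was 390-fold lower at low B12 (interval 165 to 1211) and 376-fold lower at high B12 (180 to 946). The rule also moves cells with at least 10 UMIs of Elane, Mpo and Prtn3 out of stage 2. In stage 1 cells that also met the limits of stage 2, Ctsg was at 60.5 and 230 CPM, and in the others at 1329 and 361 CPM. Without the leading barcode stage 1 held 312 and 226 CPM. Empty droplets held Ctsg at 2.88 and 2.66 CPM, above its stage 2 levels. Fcnb, encoding the granule lectin ficolin B, fell more slowly, with 1295, 397, 0 and 0 CPM at low B12 and 1342, 366, 2.22 and 0.625 CPM at high B12. Its step from stage 1 to stage 2 was 3.26-fold at low B12 (2.97 to 3.58) and 3.67-fold at high B12 (3.44 to 3.92), and stage 2 still held 397 and 366 CPM of Fcnb where Ctsg was at 1.41 and 0.743 CPM.

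Serpinb1a and Cd63 carried on into stage 2. Serpinb1a, an inhibitor of elastase, cathepsin G and proteinase 3 that lies in the cytosol, was at 744, 618, 52.2 and 7.86 CPM at low B12 and 773, 669.7, 144 and 8.91 CPM at high B12. Of the genes of its 3 targets, Elane and Ctsg were under 5 CPM in stage 2 and Prtn3 was at 17.2 and 12.9 CPM. The low levels of Elane and Prtn3 there are set by the rule. Serpinb1a itself was 1.20-fold (1.08 to 1.34) and 1.15-fold (1.07 to 1.247) lower in stage 2 than in stage 1. Cd63, a membrane protein of azurophil granules, was at 490.3, 345, 104 and 118 CPM at low B12 and 504, 348, 133 and 115 CPM at high B12. Prss57, a further azurophil serine protease, ranged from 8.69 to 78.1 CPM at low B12 and from 11.7 to 64.1 CPM at high B12 with its highest level in stage 1.

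Ctsc was highest in stage 1. It encodes cathepsin C, which activates the granule serine proteases by removing a dipeptide, and was at 189, 31.6, 165 and 22.6 CPM at low B12 and 218, 19.0, 82.2 and 20.2 CPM at high B12. The stage 3 level rested on few cells, with UMIs in 3 of 11 and 8 of 64 cells and with 57.9% and 48.6% of them in 1 barcode. Without that barcode it was 92.5 and 46.5 CPM, and without called doublets 0 and 17.7 CPM. In stage 2 Ctsc was at 10.4 and 9.06 CPM without called doublets. Ctsc was also at 251 and 302 CPM in cells gated by monocyte genes and at 267 and 234 CPM in a B cell gate. Summed RNA of 8 monocyte markers was 2272, 1054, 1895 and 358 CPM in stages 1 to 4 at low B12 and 2698, 835, 922 and 290.4 CPM at high B12, and its part in the Ctsc level was not tested.

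Stage 1 was not uniform. At low B12, 10 of its 19 cells also met the limits of stage 2, and at high B12 20 of its 35 did. Cells with specific granule RNA held Camp at 41978 and 50067 CPM, above the level of stage 2, beside Elane at 1541 and 3137 CPM. The other 9 and 15 cells held Camp at 399 and 25.4 CPM and Elane at 5009 and 666 CPM. In these latter cells Ctsc was at 440 and 528 CPM, against 31.8 and 29.2 CPM in those with specific granule RNA. The 8 monocyte markers summed to 3751 and 5234 CPM in these latter cells, against 1340.4 and 1155 CPM in those with specific granule RNA and 3414 and 3571 CPM in the monocyte gate. Of the 8, Ly6c2 was at 2260 and 2544 CPM against 930 and 989 CPM, and F13a1 at 531 and 929 CPM against 3.18 and 3.43 CPM. Ccr2 was at 212 and 375 CPM against 22.3 and 18.9 CPM, and Ms4a6c at 531 and 1118 CPM against 111 and 54.9 CPM. Csf1r and Ms4a4c were also higher in these latter cells in both libraries. Only Cx3cr1, at 10.1 and 11.3 CPM against 92.3 and 20.6 CPM, and Ace, at 0 against 105 and 20.6 CPM, were lower there. The 9 neutrophil markers summed to 26558 and 10192 CPM in the cells without specific granule RNA, against 245204 and 275603 CPM in those with it. Whether the cells without it belong to the granulocyte line was not tested. Of these, 1 high-B12 cell held the 346 UMIs of the basophil protease gene Mcpt8. Fcnb, Serpinb1a and Cd63 were higher in the cells with specific granule RNA in both libraries, Fcnb at 1659 and 2028 CPM against 718 and 215 CPM.

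The 14 members highest in stage 2 hold the main antimicrobial cargo of specific granules. Camp, encoding cathelicidin, was at 25910.4, 41101, 1408 and 23.1 CPM at low B12 and 31144, 41413, 1598 and 75.3 CPM at high B12. Ngp, the neutrophilic granule protein of the cystatin family, was at 16325, 34339.6, 2599 and 24.1 CPM at low B12 and 17813, 37089, 3592 and 89.1 CPM at high B12. Ltf, encoding the iron binder lactoferrin, was at 985, 6259.9, 226 and 4.91 CPM at low B12 and 1067, 6386, 367 and 13.3 CPM at high B12. These 3 define the stage, and Camp and Ngp each made up over 3% of all RNA in it.

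Lcn2 followed them without being part of the rule. It encodes lipocalin 2, which binds bacterial siderophores, and was at 4454, 13024, 3581 and 795 CPM at low B12 and 4979, 14689, 4361 and 1126 CPM at high B12. Its level was 2.92-fold (2.80 to 3.05) and 2.95-fold (2.87 to 3.04) higher in stage 2 than in stage 1. Its stage 4 level was 16.4-fold (15.6 to 17.2) and 13.04-fold (12.7 to 13.4) below stage 2. Wfdc21, a small whey acidic protein family member, was at 2987, 6809.8, 2669 and 1114 CPM at low B12 and 3339.5, 7540.2, 4112 and 1509 CPM at high B12. Pglyrp1, which binds bacterial peptidoglycan, was at 1354, 2059, 1226 and 997 CPM at low B12 and 1339.9, 2299.6, 1849 and 1199 CPM at high B12. Without called doublets low-B12 Pglyrp1 was at 2429 CPM in stage 3 and 2296 CPM in stage 2, a ratio of 1.06 (0.832 to 1.33). The fall of Camp, Ngp and Ltf by stage 4 is set by the rule, so it is no measure for the fall of Lcn2, Wfdc21 or Pglyrp1.

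Chil3 and Orm1 behaved as early members of this group. Chil3 encodes the chitinase-like protein Ym1 and was at 3276, 3884, 122 and 13.3 CPM at low B12 and 3614, 4146, 95.6 and 29.5 CPM at high B12. Stage 2 was 1.19-fold (1.13 to 1.248) and 1.15-fold (1.11 to 1.19) above stage 1 as a whole, which includes the cells without specific granule RNA. Orm1, encoding the acute phase protein orosomucoid, was at 199, 267, 0 and 0 CPM at low B12 and 130.3, 252, 2.22 and 0.469 CPM at high B12. Chil3 was 31.9-fold (19.0 to 58.4) and 43.4-fold (32.2 to 60.0) lower in stage 3 than in stage 2, and its stage 3 level without called doublets was 224 and 76.6 CPM. Low-B12 stage 3 held no Orm1 UMI, and 3 UMIs there would be 26.1 CPM, so its Orm1 level was at least 10.2-fold lower than in stage 2.

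Cd177, Itgb2l, Ceacam1, Anxa1 and Lyz2 complete the group apart from Olfm4. Cd177, a surface antigen of neutrophils held in specific granule membranes, was at 199, 602, 382 and 34.4 CPM at low B12 and 130.3, 667, 422 and 42.8 CPM at high B12. Itgb2l, an integrin beta subunit, was at 80.1, 240.1, 43.5 and 2.46 CPM at low B12 and 63.0, 239, 149 and 5.47 CPM at high B12. Ceacam1, an inhibitory adhesion receptor, was at 125, 196, 156 and 59.9 CPM at low B12 and 56.6, 155, 91.1 and 45.8 CPM at high B12. Anxa1, the phospholipid binding protein annexin A1, was at 1483, 3311, 1287 and 687 CPM at low B12 and 1539.5, 3795, 1369 and 707 CPM at high B12. Lyz2 encodes lysozyme, which is present in all granule types, and was at 8507, 10279, 7015 and 1901 CPM at low B12 and 10503, 11637, 5212 and 2582 CPM at high B12. Its levels in stages 1 and 2 were close, with stage 2 1.21-fold (1.17 to 1.247) and 1.11-fold (1.09 to 1.13) above stage 1, and stage 4 still held 1901 and 2582 CPM.

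Promoters of members from successive stages are shown so that the sequence before their starts can be read beside their levels. Of the 7 genes shown, Elane, Prtn3, Mpo, Ngp and Ltf draw the stages, and their place along them is set by the rule. RefSeq gave a window of 250 bases before and 50 bases after the start for 26 of the 32 members in GRCm38.p6, and entries for Serpinb1a, Prss57, Orm1, Wfdc21, Hp and Mmp9 were not matched. Each window was searched on both strands for AGGAAGT, a form bound by ETS family factors such as PU.1, and for TTGCNNAA, a form bound by C/EBP factors, and the capitals below mark their matches. The 7 shown were picked among those with a match, 3 from stage 1 (Elane, Prtn3, Mpo), 3 from stage 2 (Ngp, Ltf, Lcn2) and 1 from stage 3 (Retnlg).
Elane: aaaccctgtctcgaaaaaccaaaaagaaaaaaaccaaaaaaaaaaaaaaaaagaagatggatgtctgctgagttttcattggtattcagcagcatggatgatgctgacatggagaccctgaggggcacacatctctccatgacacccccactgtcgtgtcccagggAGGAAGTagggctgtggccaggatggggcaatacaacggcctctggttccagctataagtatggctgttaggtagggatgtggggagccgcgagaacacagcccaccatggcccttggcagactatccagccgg
Prtn3: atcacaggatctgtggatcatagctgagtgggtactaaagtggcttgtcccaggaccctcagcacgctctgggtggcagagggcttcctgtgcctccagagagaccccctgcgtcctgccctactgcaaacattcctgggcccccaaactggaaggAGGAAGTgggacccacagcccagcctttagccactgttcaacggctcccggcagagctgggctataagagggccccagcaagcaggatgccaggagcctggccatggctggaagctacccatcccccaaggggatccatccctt
Mpo: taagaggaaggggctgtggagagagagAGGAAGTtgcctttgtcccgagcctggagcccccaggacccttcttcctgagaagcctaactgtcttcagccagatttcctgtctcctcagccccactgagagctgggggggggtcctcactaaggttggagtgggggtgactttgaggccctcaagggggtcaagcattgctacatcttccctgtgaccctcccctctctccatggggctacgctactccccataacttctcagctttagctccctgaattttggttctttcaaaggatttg
Ngp: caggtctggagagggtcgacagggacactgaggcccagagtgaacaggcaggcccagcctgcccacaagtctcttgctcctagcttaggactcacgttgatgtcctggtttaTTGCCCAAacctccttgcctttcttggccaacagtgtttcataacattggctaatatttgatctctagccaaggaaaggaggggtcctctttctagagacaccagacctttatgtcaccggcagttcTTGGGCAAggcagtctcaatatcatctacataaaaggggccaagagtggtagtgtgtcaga
Ltf: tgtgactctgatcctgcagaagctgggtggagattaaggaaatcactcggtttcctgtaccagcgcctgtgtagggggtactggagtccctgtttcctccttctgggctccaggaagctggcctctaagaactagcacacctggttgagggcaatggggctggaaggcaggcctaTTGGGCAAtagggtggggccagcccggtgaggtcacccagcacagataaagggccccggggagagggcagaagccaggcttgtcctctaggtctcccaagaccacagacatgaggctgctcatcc
Lcn2: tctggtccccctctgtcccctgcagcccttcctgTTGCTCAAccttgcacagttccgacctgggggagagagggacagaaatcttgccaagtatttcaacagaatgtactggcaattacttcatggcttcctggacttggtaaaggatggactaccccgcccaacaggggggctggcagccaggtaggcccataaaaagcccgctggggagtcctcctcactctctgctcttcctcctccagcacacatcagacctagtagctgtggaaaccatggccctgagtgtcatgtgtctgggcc
Retnlg: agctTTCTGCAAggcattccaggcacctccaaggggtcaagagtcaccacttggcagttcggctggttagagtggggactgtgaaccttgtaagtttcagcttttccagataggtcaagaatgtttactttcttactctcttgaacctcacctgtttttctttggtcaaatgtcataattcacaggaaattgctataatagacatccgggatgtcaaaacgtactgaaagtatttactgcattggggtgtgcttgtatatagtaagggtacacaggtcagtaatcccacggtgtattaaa
The windows are Elane at chr10:79886062-79886361, Prtn3 at chr10:79879417-79879716, Mpo at chr11:87793534-87793833, Ngp at chr9:110419558-110419857, Ltf at chr9:111019042-111019341 and Retnlg at chr16:48872358-48872657, all on the plus strand. The Lcn2 window lies at chr2:32387690-32387989 on the minus strand. The AGGAAGT match began 84 bases before the start of Elane, 94 before that of Prtn3 and 223 before that of Mpo. The TTGCNNAA match began 75 bases before the start of Ltf, 216 before that of Lcn2 and 246 before that of Retnlg, and Ngp had matches at 138 and 11 bases before its start.

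AGGAAGT was in 9.35% of all 32851 RefSeq promoters of this length and in 11 of the 26 member promoters. By the stage of highest level it was in 6 of 7 stage 1 members, namely Mpo, Elane, Prtn3, Ctsg, Ctsc and Fcnb, in 4 of 12 stage 2 members, in 1 of 5 stage 3 members and not in the 1 stage 4 member. TTGCNNAA was in 10.8% of all promoters and in 8 of the 26, which were 1 of 7, 4 of 12, 2 of 5 and 0 of 1 by stage, with Adam8 as the eighth. The shorter forms GAGGAA and GGAAGT, which overlap AGGAAGT, were in 28.3% and 23.8% of all promoters and in 18 and 14 of the 26. The wider form TTNCNNAA, which includes TTGCNNAA, was in 40.7% and in 18 of the 26, and the form TTNCGNAA in 2.47% and in 1. The count of members differed from form to form, a match says only that these letters are in the window, and no binding was measured here.

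Within stage 2, members were compared between cells with and without cell cycle RNA, a split that uses none of them. Cells with at least 0.2% of UMIs from the 14 cell cycle genes numbered 38 at low B12 and 74 at high B12, and cells under 0.1% numbered 204 and 616. Of 28 members with at least 50 UMIs in each library, 4 were at least 1.5-fold higher in cycling cells in both libraries, against 14.8% of 5258 genes, and 9 were at least 1.5-fold lower, against 17.7%. Cycling cells were deeper, with a median of 21973.5 and 21250.5 UMIs against 10709.5 and 10891, and among the deeper cells alone, above a limit close to the median of the other cells, 3 members were higher and 10 lower. After thinning every cell to 500 UMIs, 2 were higher and 5 lower.

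The 4 members higher in cycling cells were Prtn3, Fcnb, Chil3 and Orm1. Fcnb was at 906 CPM in cycling and 186 CPM in other low-B12 cells, a 4.86-fold difference (4.32 to 5.47). At high B12 it was at 759 and 232 CPM, or 3.28-fold (3.04 to 3.54). Both libraries thus held more than 3 times as much Fcnb RNA in dividing stage 2 cells. Chil3 was at 6027 against 2900 CPM at low B12 and at 7304 against 3300 CPM at high B12. Prtn3 was at 55.0 against 2.45 CPM and at 21.4 against 6.98 CPM. Without called doublets 2 members were higher at this fold.

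The 9 members lower in cycling cells were Mmp8, Mmp9, Mmp25, Slc11a1, Fpr1, Fpr2, Adam8, Retnlg and Olfm4. Mmp8, encoding neutrophil collagenase, was at 9.56 CPM in cycling and 962 CPM in other low-B12 cells. At high B12 it was at 26.1 and 899 CPM, 34.5-fold lower in cycling cells (25.2 to 48.6), and at low B12 the fold was 101 (51.0 to 233). Retnlg was at 38.3 against 4578 CPM at low B12 and at 317 against 7541 CPM at high B12. Mmp9, encoding gelatinase B, was at 50.2 against 1039 CPM and at 60.8 against 1087 CPM. The group named in the rule for stage 2 changed far less, with Camp 1.44-fold (1.43 to 1.46) and 1.42-fold (1.41 to 1.43) higher and Ltf at 5067 against 6807 CPM and at 5001 against 6820 CPM. Without called doublets 9 members were lower.

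**Figure D2:**
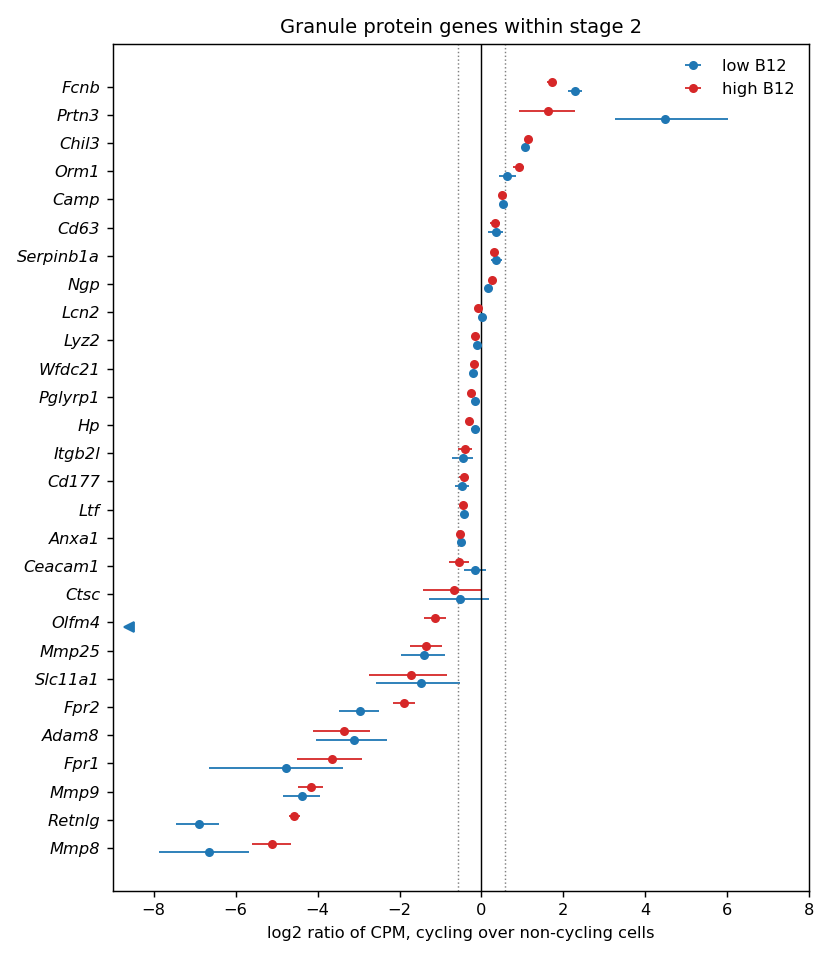
Each point is a member's log2 ratio of CPM in cycling over non-cycling stage 2 cells, blue for low B12 and red for high B12, with 95% counting intervals and dotted lines at 1.5-fold. Fcnb, Prtn3, Chil3 and Orm1 lie right of the dotted lines, Mmp8, Retnlg, Mmp9, Fpr1 and Adam8 lie far to the left, and the arrow marks Olfm4, with no UMI in the low-B12 cycling cells.

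The same change was visible along the content of Camp, Ngp and Ltf within stage 2. Cells with at least 9% of UMIs from these 3 genes held Retnlg at 815 CPM at low B12 and 1089 CPM at high B12. With 6% to 9% it was at 2793 and 4720 CPM, with 3% to 6% at 6690 and 12923 CPM, and with 1% to 3% at 10772 and 31229 CPM. Retnlg, encoding a resistin-like secreted protein, was thus higher at each lower content in both libraries. Mmp8 was at 395, 760.5, 983 and 1236 CPM in the same order at low B12 and at 251, 852, 1315 and 1967 CPM at high B12. Lcn2 ran the other way, from 16664.5 and 17416 CPM in the first to 4596 and 8011 CPM in the last of these bins, and Fcnb went from 573 and 556 CPM to 30.7 and 13.03 CPM. The last low-B12 bin held 22 cells.

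The 5 members highest in stage 3 in both libraries were Retnlg, Mmp8, Mmp25, Fpr1 and Fpr2. This ranks stage 3 against stage 2 as a whole. Stage 2 cells with 1% to 3% of UMIs from Camp, Ngp and Ltf held Mmp25 at 126 and 220 CPM, above stage 3 in both libraries. In the same cells Mmp8 and Fpr1 were above stage 3 only at high B12, Fpr2 only at low B12, and Retnlg in neither library. Retnlg was at 178, 3227, 19567 and 7216 CPM at low B12 and 119, 5803, 32677 and 9217 CPM at high B12. Its rise from stage 2 to stage 3 was 6.06-fold (5.79 to 6.34) and 5.63-fold (5.53 to 5.74), and it was the most abundant member in that stage. Without called doublets it was at 41064 and 38750 CPM in stage 3, a rise of 11.2-fold (10.6 to 11.9) and 6.23-fold (6.11 to 6.35). Mmp8 was at 25.4, 673, 1712 and 315 CPM at low B12 and 18.1, 690.5, 1611 and 302 CPM at high B12. Its rise from stage 2 was 2.54-fold (2.19 to 2.94) and 2.33-fold (2.16 to 2.52), and without called doublets 3.93-fold (3.16 to 4.84) and 2.39-fold (2.19 to 2.60). Mmp25, a membrane-bound metalloproteinase of neutrophils, was at 9.77, 90.7, 122 and 43.7 CPM at low B12 and 7.47, 87.6, 158 and 36.3 CPM at high B12. At low B12 its step from stage 2 to stage 3 was 1.34-fold with an interval of 0.726 to 2.29, which includes no difference, and without called doublets 2.52-fold (1.08 to 5.03).

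Fpr1 and Fpr2 are receptors for formylated bacterial peptides that draw neutrophils to infected tissue. Fpr1 was at 7.81, 91.2, 252 and 156 CPM at low B12 and 2.14, 98.5, 320.0 and 157 CPM at high B12. Its rise from stage 2 to stage 3 was 2.76-fold (1.82 to 4.05) and 3.25-fold (2.71 to 3.88), and without called doublets 4.69-fold (2.59 to 7.86) and 3.31-fold (2.70 to 4.03). Fpr2 was at 5.86, 265, 287 and 186 CPM at low B12 and 9.61, 259, 431 and 151 CPM at high B12. At low B12 stage 3 was 1.08-fold above stage 2 for Fpr2 (0.740 to 1.53), so the order of these neighbours was within counting error there, and without called doublets 1.79-fold (1.02 to 2.93). Both receptors were at under 10 CPM in stage 1 of both libraries.

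Hp and Slc11a1 were highest in stage 4. Hp encodes haptoglobin, which binds free hemoglobin and is stored in specific granules, and was at 929.8, 999, 852 and 1255 CPM at low B12 and 1032, 1178, 1031 and 1557 CPM at high B12. Its levels differed little between stages, with stage 4 at 1.26-fold (1.19 to 1.32) and 1.32-fold (1.29 to 1.36) of stage 2. Slc11a1, the metal ion transporter NRAMP1 of gelatinase granules, was at 15.6, 26.8, 86.9 and 163 CPM at low B12 and 8.54, 20.3, 86.7 and 127 CPM at high B12. From stage 2 to stage 4 it was 6.08-fold (4.83 to 7.72) and 6.28-fold (5.36 to 7.396) higher.

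Mmp9 and Adam8 had their highest stage in different places in the 2 libraries. Mmp9 was at 11.7, 739, 1217 and 1518 CPM at low B12 and 28.8, 846, 1936 and 1297 CPM at high B12. Its ratio of stage 4 to stage 3 was 1.247 at low B12 (1.05 to 1.49) and 0.670 at high B12 (0.625 to 0.719). Adam8, a surface metalloprotease, was at 5.86, 98.8, 243 and 299 CPM at low B12 and 5.34, 103, 322 and 257 CPM at high B12, with a ratio of 1.23 (0.842 to 1.87) and 0.797 (0.672 to 0.951). Without called doublets the low-B12 ratio for Mmp9 was on the other side, at -0.70 on the log2 scale against -0.74 at high B12. For Adam8 stage 3 was then 1.67-fold (0.964 to 2.69) and 1.46-fold (1.22 to 1.75) above stage 4. Without stage 3 no member differed between libraries in its highest stage.

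**Figure D3:**
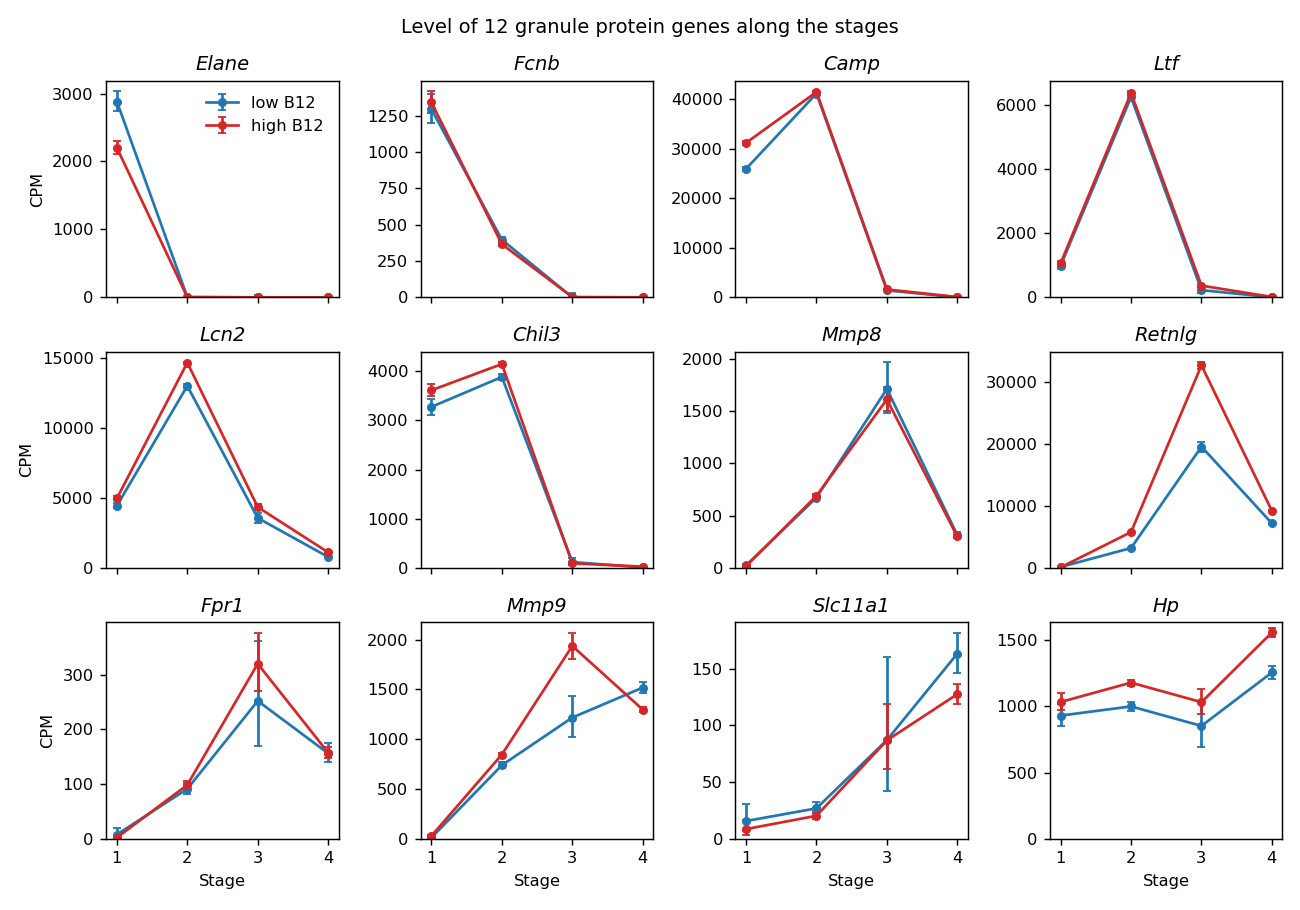
CPM of 12 members in stages 1 to 4 on axes from 0, blue for low B12 and red for high B12, with 95% counting intervals. Elane and Fcnb start high, Camp, Ltf, Lcn2 and Chil3 peak in stage 2, Mmp8, Retnlg and Fpr1 peak in stage 3, and Slc11a1 and Hp are highest in stage 4.

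Other granule genes were taken from lists that name no member. Of 13 azurophil and lysosomal genes tested, 4 were highest in stage 1 in both libraries, a share near the 29.1% of all genes, and 5 were highest in stage 4. Lamp1, a lysosome membrane protein, was at 330 and 353 CPM in stage 1 and at 134 and 116 CPM in stage 4, while Srgn, the proteoglycan core that binds granule proteases, was at 975 and 793 CPM in stage 1 and at 6768 and 6896 CPM in stage 4. Ctsd, encoding cathepsin D, went from 105 and 115 CPM to 743 and 708 CPM, and Lamp2 from 162 and 172 CPM to 322 and 294 CPM. Of 12 specific granule genes, 2 were highest in stage 2, namely Cybb and Cyba, the 2 chains of the oxidase cytochrome, with Cybb at 1467 and 1331 CPM there. Slpi, a protease inhibitor, rose to 2175 and 2507 CPM in stage 4, and Lrg1 to 601 and 765 CPM.

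Secretory vesicle and surface genes sat at the end of the series. All 8 tested were highest in stage 4 in both libraries, against 25.7% of all genes. Among them were the complement receptor C5ar1 at 762 and 871 CPM, the Fc receptor Fcgr3 at 410 and 413 CPM, and Ptafr at 229 and 173 CPM. Late transcription factors were highest in stage 4 in 9 of 9, against the same 25.7%. Examples were Junb at 4921 and 4874 CPM, Klf2 at 2631 and 2780 CPM, Cebpb at 1595 and 1418 CPM, and Mxd1 at 1191 and 1099 CPM. Of 6 early factors tested, Runx1 and Irf8 were highest in stage 1 in both libraries, a share near the 29.1% of all genes. Runx1 was at 277 and 222 CPM there and Irf8 at 137 and 95.02 CPM, in a stage that includes cells high in monocyte marker RNA. Cebpe, which drives the specific granule program, was highest in stage 2, at 349 and 342 CPM, against 322 and 277 CPM in stage 1 and 43.5 and 46.7 CPM in stage 3. Cbfb was at 76.2 and 60.9 CPM in stage 1 and shared no highest stage.

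Between the libraries, most members differed little within a stage. In stage 2, the stage with the most UMIs, 2 of 29 members were at least 1.5-fold higher at high B12, against 1.64% of 8407 genes, and 1 was at least 1.5-fold lower, against 19.7%. The median log2 ratio of high to low B12 was 0.06 over the members and -0.26 over all genes tested. Camp was at 41101 and 41413 CPM, a ratio of 1.01 (1.00 to 1.01), and Ltf at 6260 and 6386 CPM, a ratio of 1.02 (1.00 to 1.04). Lcn2 was 1.13-fold higher at high B12 (1.12 to 1.14). Ctsc was lower at high B12, at 19.0 against 31.6 CPM, 1.66-fold (1.30 to 2.12), but was at 9.06 against 10.4 CPM without called doublets.

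Retnlg and Olfm4 were the 2 members past 1.5-fold higher in stage 2. Retnlg was at 3227 CPM at low B12 and 5803 CPM at high B12, 1.80-fold higher (1.76 to 1.84). It was also higher at high B12 in each of the 4 bins of Camp, Ngp and Ltf content given above. Among non-cycling cells it was at 4578 and 7541 CPM, and among cycling cells at 38.3 and 317 CPM. Empty droplets held Retnlg at 679 and 1746 CPM, 2.57-fold higher at high B12 (2.39 to 2.77), and the part of this free RNA in the difference was not tested.

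In stage 4, 5 of 25 members were at least 1.5-fold higher at high B12, against 3.35% of 7193 genes, and 0 were lower, against 7.49%. The medians were 0.27 over the members and -0.12 over all genes on the log2 scale. These 5 were Camp, Ngp, Ltf, Chil3 and Olfm4, all at low levels there. Camp was at 23.1 and 75.3 CPM, 3.26-fold higher (2.42 to 4.50). Ngp was at 24.1 and 89.1 CPM, 3.70-fold higher (2.76 to 5.06). Ratios of this size were also seen in cells that should not make these proteins. In the B cell gate Camp was at 13.2 and 48.0 CPM, 3.63-fold (2.89 to 4.58), and Ngp at 7.80 and 33.2 CPM, 4.26-fold (3.19 to 5.72). Empty droplets held Camp at 2423 and 6241 CPM, 2.58-fold (2.48 to 2.68). Ltf was at 4.91 and 13.3 CPM in stage 4 and at 1.80 and 7.64 CPM in the B cell gate. Chil3 was at 13.3 and 29.5 CPM in stage 4 against 3.20 and 9.49 CPM in the B cell gate. The part of this free RNA in the stage 4 differences was not tested.

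In stage 1, with 19 and 35 cells, 1 of 25 members was at least 1.5-fold higher at high B12 (background 4.76% of 3508 genes) and 6 were lower (background 11.8%). The 6 were Mpo, Ctsg, Cd177, Ceacam1, Orm1 and Retnlg. Mpo was at 1006 and 504 CPM, 1.996-fold lower at high B12 (1.76 to 2.27). A single barcode held 47.8% of the low-B12 Mpo UMIs and another 31.4% of the high-B12 ones, and per cell the median was 120 and 89.4 CPM. Among the stage 1 cells with specific granule RNA the order was the reverse, at 204 and 714 CPM for Mpo and 60.5 and 230 CPM for Ctsg. Among the other cells Mpo was at 2280 and 158 CPM and Ctsg at 1329 and 361 CPM. The direction for these 2 members thus depended on which stage 1 cells were counted.

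In stage 3, 8 of 23 members were at least 1.5-fold higher at high B12 (background 16.9% of 1507 genes) and 2 were lower (background 20.6%). The 8 were Serpinb1a, Ltf, Pglyrp1, Itgb2l, Mmp9, Fpr2, Retnlg and Wfdc21, and the 2 were Ctsc and Ceacam1. Without called doublets 2 members were higher and 3 lower, the latter being Lcn2, Mmp8 and Mmp25. Neither Ctsc, then at 0 and 17.7 CPM, nor Ceacam1, then at 95.9 and 100.1 CPM, was still lower at high B12. Serpinb1a, at 52.2 and 144 CPM, kept a log2 ratio of 1.20 without called doublets. Those of Pglyrp1, Mmp9, Fpr2 and Retnlg turned to -0.19, -0.23, -0.056 and -0.084.

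**Figure D4:**
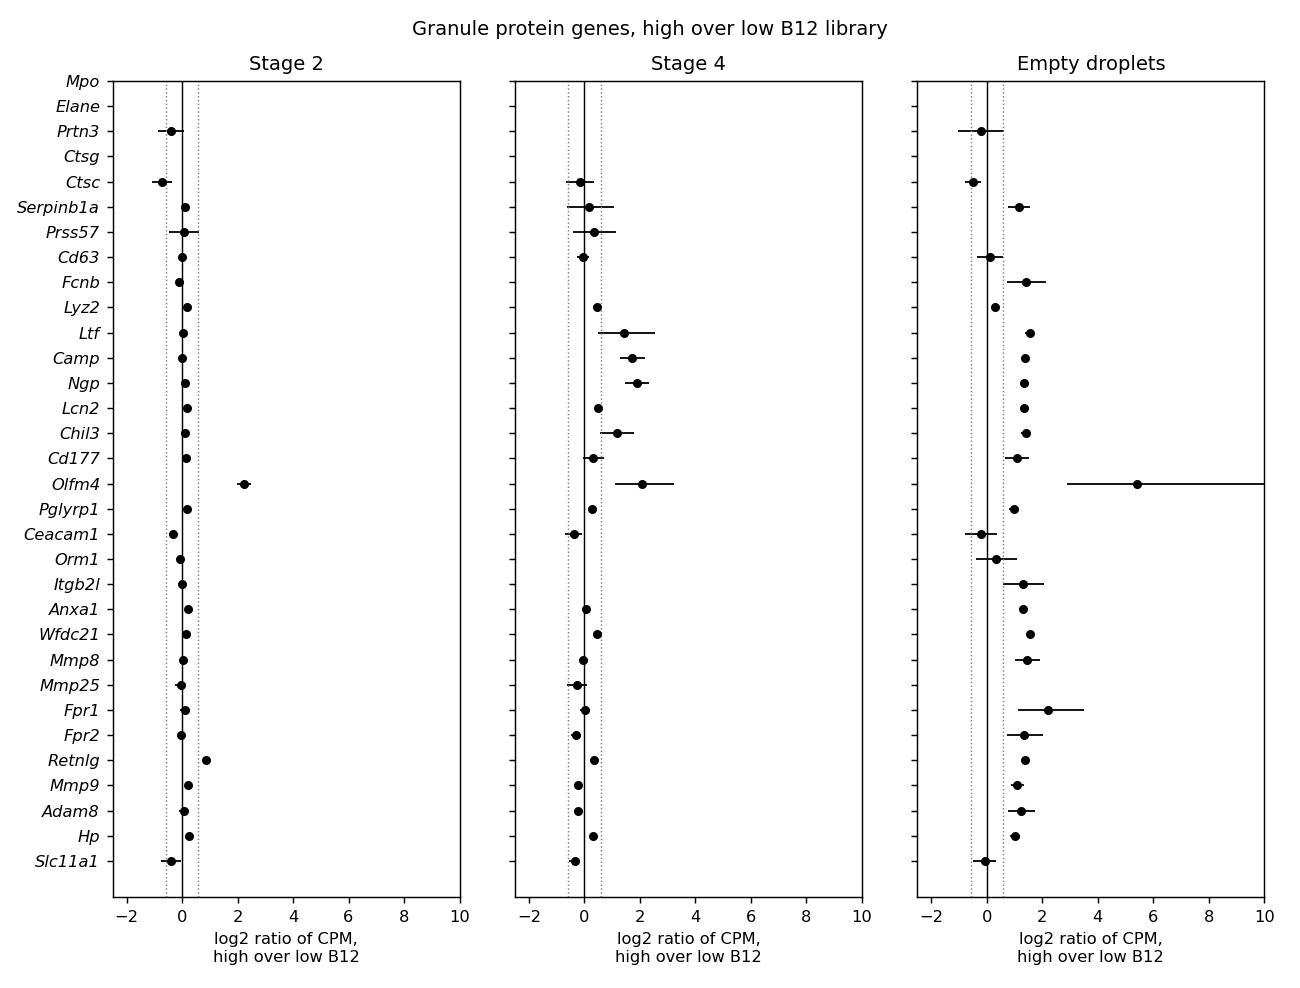
Each point is a member's log2 ratio of CPM in the high-B12 over the low-B12 library in stage 2, stage 4 and empty droplets, with 95% counting intervals and dotted lines at 1.5-fold, and members under 50 UMIs not drawn. In stage 2 all but Olfm4, Retnlg and Ctsc lie between the dotted lines, and in stage 4 Camp, Ngp, Ltf, Chil3 and Olfm4 lie to the right, as these genes do in empty droplets.

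Among the members compared, Olfm4 had the largest ratio of high to low B12 in stages 1, 2 and 4 and is singled out for that, so its values are a description. It encodes olfactomedin 4, a specific granule glycoprotein known to be made by only a subset of neutrophils. In stage 2 it was at 36.4 CPM at low B12 and 171 CPM at high B12, 4.69-fold higher (3.92 to 5.65). At low B12, 5 of 254 cells had a UMI (1.97%, 0.642% to 4.53%), and at high B12 60 of 735 had one (8.16%, 6.29% to 10.4%). The cells that had it held much of it, with a median of 28 UMIs in the 5 and 23.5 UMIs in the 60. All 5 and 54 of the 60 held at least 5 UMIs, and among these the median level per cell was 1673 and 2243 CPM. These intervals cover the counting of cells in 1 library each and say nothing of how mice would vary.

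Thinning each stage 2 cell to 500 UMIs gave Olfm4 in 0.787% and 5.03% of cells. In the B cell gate a UMI was seen in 1 of 1565 and 0 of 574 cells, at median depths of 5726 and 6058.5 UMIs, and in the monocyte gate 0 of 906 and 1 of 593 had one. Empty droplets held 0.719 and 30.9 CPM. In stage 4, 7 of 666 cells had a UMI at low B12 and 74 of 1864 at high B12, but only 2, both at high B12, had 5 or more. The share of stage 2 cells with Olfm4 at low B12 rests on 5 cells. It was 1.35% without called doublets, against 7.95% at high B12.

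Stage 2 cells with at least 5 Olfm4 UMIs were compared with those without any in the other members. At high B12 Camp was at 37343 and 41820 CPM in the 54 cells with and the 675 cells without, a ratio of 0.893 (0.882 to 0.904). Ltf was at 6295 and 6397 CPM and Lcn2 at 14921 and 14698 CPM. Hp was lower in the cells with Olfm4, at 807 against 1210 CPM, a ratio of 0.666 (0.612 to 0.724), and Retnlg at 4292 against 5926 CPM, a ratio of 0.724 (0.698 to 0.751). Slc11a1 was at 9.65 against 21.2 CPM, a ratio of 0.456 (0.181 to 0.958). Among members higher in these cells, Orm1 was at 325 against 247 CPM, a ratio of 1.32 (1.14 to 1.51), and Prtn3 at 22.1 against 12.2 CPM, a ratio of 1.81 (1.001 to 3.09). In the 5 low-B12 cells Hp was at 968 against 999.6 CPM, a ratio of 0.968 (0.759 to 1.22), and Retnlg at 3258 against 3226 CPM, a ratio of 1.01 (0.887 to 1.14). Mmp8 was lower in these 5 cells, at 314 against 681 CPM, a ratio of 0.461 (0.295 to 0.687), while at high B12 its ratio was 0.952 (0.865 to 1.04). Ngp was higher in them, with a ratio of 1.38 (1.33 to 1.43), against 0.974 (0.962 to 0.986) at high B12.

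**Figure D5:**
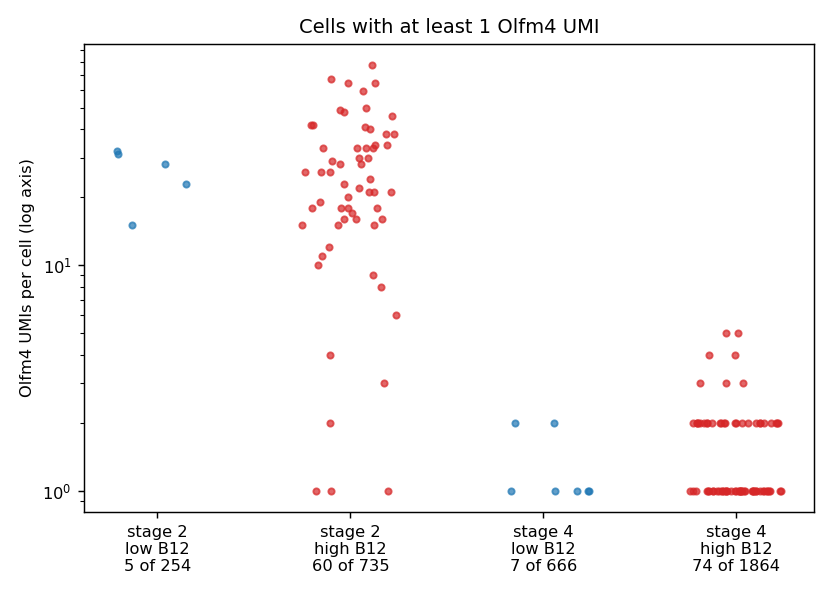
Olfm4 UMIs per cell on a log axis, for each cell with at least 1 UMI in stages 2 and 4 of both libraries, spread sideways at random. Most stage 2 cells with Olfm4 lie above 10 UMIs, while those of stage 4 lie at 1 to 5.

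Some members were not particular to the granulocyte stages. Lyz2 was at 11899 and 14372 CPM in the monocyte gate, above its 10278.5 and 11637 CPM in stage 2, and at 60.3 and 86.2 CPM in the B cell gate. Chil3 was at 261 and 509.9 CPM in the monocyte gate, against 3884 and 4146 CPM in stage 2. Ceacam1 was at 124 and 81.1 CPM and Anxa1 at 422 and 508 CPM in monocyte-gated cells. Fcnb, by contrast, was at 1.32 and 2.24 CPM there, Orm1 at 0 in both, and Cd63 at 1.85 and 1.12 CPM. Slc11a1 was at 75.3 and 55.5 CPM in that gate, between its levels in stages 2 and 4.

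In GRCm38 (GENCODE annotation) the 32 genes fell on 14 chromosomes, and 6 adjacent pairs lay within 2 Mb. Elane (chromosome 10, 79886247 to 79888215) lay 3073 bases from Prtn3 (79874476 to 79883174) with 0 coding genes between them, and Prss57 lay 83515 bases before Prtn3 with 3 between. Camp, Ngp and Ltf shared chromosome 9, 570130 bases apart for the first pair with 8 coding genes between, and 596259 bases for the second with 20. Fpr1 and Fpr2 were 3884 bases apart on chromosome 17 with 0 between. Cd177 and Ceacam1 were 701396 bases apart on chromosome 7 with 25 between. Elane, Prtn3, Camp, Ngp and Ltf draw the stages, so the shared highest stage of the pairs made of them alone was set by the rule. In the other pairs Prss57 and Prtn3 were both highest in stage 1, Fpr1 and Fpr2 in stage 3, and Cd177 and Ceacam1 in stage 2.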

How the data were processed

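The deposited files hold whole-number UMI counts of 32285 genes for each barcode, which the authors made with Cell Ranger 4 per the file headers, while the submitters' processing notes name version 2.1.1. Genome build and annotation: not given in the sources used here. A barcode was kept as a cell from 500 UMIs and 200 genes upward unless over 10% of its UMIs were mitochondrial, in libraries of 48884220 and 46994991 UMIs. Scrublet in scanpy 1.11.5 called 453 and 304 doublets, which were kept in the main values. UMIs were summed by stage and library. Intervals are exact, Poisson for CPM, binomial for shares and conditional binomial for ratios. No test was possible with 1 library for each condition, and the scripts were tested on simulated data (Python 3.11.15, numpy 2.4.6, scipy 1.17.1, pandas 2.3.3, matplotlib 3.10.9). A difference counts from 1.5-fold with at least 50 UMIs, and a bound against 0 uses 3 UMIs over the stage. B cell and monocyte gates ask for 3 UMIs of their markers. Thinning drew 500 UMIs from each cell.

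Named were all 32 members, with values in every stage where a member reached 100 CPM in each library, and up to 4 genes of each list, those with the highest CPM, of which 1 is not reported here. The members and lists were chosen with earlier results of these data known. The gates, the splits of stages 1 and 2, the bins and the split by Olfm4 were chosen after the data were seen, as was the detail given on Olfm4.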

Additional observations from a re-analysis of the deposited data

Results flagged for a closer look

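The ratio of Mmp9, which encodes gelatinase B, between stage 4 and stage 3 lay on opposite sides of 1 in the 2 libraries. It was 1.247 at low B12 and 0.6702 at high B12, each from 1 library, and the difference was not tested. Low-B12 stage 3 held 11 cells, of which 5 were called doublets.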

How the results depend on the processing

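No paired analysis was possible because each condition had 1 library, and for the same reason no replicate could be left out. Of 276 recomputed counts, 236 stayed within 1.5 times. Thinning to 500 UMIs, after which fewer genes pass 50 UMIs, left 1 member highest in stage 1, 7 in stage 2 and 6 in different stages. It left 1 azurophil, 3 secretory, 1 early factor and 1 cell cycle gene in the stage of their list. Between libraries it left 1 lower in stage 1, 0 lower in stage 2, 2 higher and 1 lower in stage 3, and 2 higher in stage 4, and by cell cycle 2 higher and 5 lower. Without called doublets 1 member, Slc11a1, was highest in stage 4, as Hp no longer was at low B12. Then 0 were lower at high B12 in stage 2, 2 were higher in stage 3, and 2 were higher in cycling cells. Leaving out stage 3 gave 6 members highest in stage 4, 0 in different stages, and 4 early factors in stage 1. With S100a8 and S100a9 out of the total 4 members differed in stage.

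A mean of CPM per cell gave 1 specific granule list gene in stage 2, 0 lower in stage 2 and 3 higher in stage 3. Without a UMI filter 3 were higher in stage 1, 3 lower in stage 2, 13 higher in stage 3, 11 higher in stage 4 and 7 higher in cycling cells. Without the leading barcode 0 were higher and 3 lower in stage 1, and 0 lower in stage 3. Setting the median ratio to 1 gave 3 lower in stage 1 and 0 in stage 2. Limits of 0.1% and 0.5% gave 3 higher and 1 lower in stage 3. Limiting stage 1 to cells that also meet the limits of stage 2 gave 6 higher, 3 lower and 1 specific granule list gene.

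Of 297 recomputed values of 25 library ratios past 1.5-fold, 252 kept that fold, 38 kept the direction below it and 7 reversed, and 10 ratios were past it in every setting run. The 7 log2 values were 1.81 for Mpo and 1.93 for Ctsg in stage 1 limited as above, -0.58 for Ltf in stage 3 with limits of 0.4% and 2%, and, without called doublets in stage 3, -0.19 for Pglyrp1, -0.23 for Mmp9, -0.056 for Fpr2 and -0.084 for Retnlg. The log2 ratio of Mmp9 between stages 4 and 3 at low B12 was 0.32 and turned to -0.70 without called doublets, -0.27 after thinning and -0.19 as a mean per cell. The cause was not tested. Leaving out stage 3, limiting stage 1, and the settings run on the cycling split were chosen after seeing the data. Depth limits stage 3 most, where 3 UMIs are 26.1 CPM at low B12 and 6.67 CPM at high B12.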
